A study of Mus musculus with 8 samples.

Results

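Gene expression was compared between Elf4 knockout and wild-type CD8+ T cells that had been activated in culture, measured on 4 of the 8 Affymetrix oligonucleotide arrays of the study. The 4 arrays were chosen by their titles, 2 from activated wild-type cells and 2 from activated Elf4 knockout cells, and every probe set that is not a manufacturer's control was considered. The study asks how the transcription factor ELF4 controls the division of CD8+ T cells.

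The wild-type mice were C57BL/6 and carried an intact Elf4 gene. The knockout mice were Elf4-/-, and the labels give the strain of every sample as C57BL/6. No other allele is named for either group, and neither age nor the number of animals behind an array is given. All 4 samples were CD8+ cells purified from spleen and kept for 3.5 days on plates coated with antibody to CD3, with antibody to CD28 and a T cell supplement in serum-containing medium, so both genotypes received the same stimulus. The 4 other arrays, 2 of each genotype, were of untreated cells from spleen, called naive here, and were used for the comparison with the genotype effect in naive cells. The labels do not state that replicates came from separate animals or cultures, so the p-values measure only how far these samples spread, which may be technical.

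ELF4 belongs to the ETS family of transcription factors, which bind DNA through a domain that recognises a GGAA core. In CD8+ T cells it is known as a factor that holds cells in quiescence, in part through the Krüppel-like factors KLF4 and KLF2, which restrain division and maintain the receptors for homing to lymph nodes. Antibodies to CD3 and CD28 stand in for antigen and costimulation and drive naive CD8+ T cells into division and into effector cells that secrete chemokines and cytokines.

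Each value is a probe set's intensity on a linear scale, as deposited. Intensities on the 4 activated arrays had medians of 63.9 to 71.8. Over all probe sets, which are not independent of each other, log2 values of the activated wild-type pair correlated at 0.959, those of the knockout pair at 0.958, and those of the 4 pairs of different genotype at 0.952 to 0.956. The Actb ratio, the signal of that gene's 3' control probe set over its 5' one, which rises as RNA is degraded or incompletely copied, was 5.98 and 5.90 on the wild-type and 7.44 and 11.1 on the knockout arrays. It therefore moved with genotype, and counts with this ratio in the model are given beside the main counts. All 4 activated arrays had high Xist (7703 to 10011) and low Eif2s3y (2.93 to 44.0), a female pattern. The naive arrays had the opposite, male pattern, with Xist at 60.3 to 172 and Eif2s3y at 2537 to 5146.

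The CD8+ label was checked against marker genes. Cd8a, the coreceptor chain that defines the lineage, read 6290 and 5421 in wild type and 4288 and 4397 in the knockout. Cd4 read 21.5, 43.1, 18.6 and 20.5 and Foxp3 23.6, 51.6, 16.2 and 14.8, each below its array's median. CD8 T cell markers (6 of 8 with a probe set) reached sums of 19557 and 18274 on the wild-type arrays. The knockout sums were lower, at 16185 and 17437. Of the 6 markers, 5 were lower in the knockout without overlap and 1, Cd5, was higher without overlap. The 7 CD4 and regulatory T cell markers summed to 24762 and 25467 in wild type and to 29573 and 27437 in the knockout, nearly all of it from Ctla4, Il2ra and Ikzf2, which activated CD8+ T cells also express. The sum was 143 to 358 for granulocyte, 97.5 to 164 for NK cell, 479 to 624 for macrophage and monocyte and 308 to 386 for dendritic cell markers. B cell markers (6 of 7 with a probe set) summed to 4629 and 4432 in wild type and 5618 and 6596 in the knockout, most of it Ighm. The part of these other cells in the results below was not tested.

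Elf4 itself gave a weak signal. Its brighter probe set (1421338_at) read 83.6 and 134 after activation of wild-type cells, against 76.2 and 80.6 without Elf4, and the groups did not overlap. The log2 change, knockout minus wild type, was -0.37 (SE 0.39, limma, adjusted p = 0.814). Its dimmer probe set (1421337_at) read 112 and 58.5 against 1.92 and 26.1, also without overlap (log2 change -1.83, SE 0.69, adjusted p = 0.373), with 3 of these 4 values below their arrays' medians. Whether either of the gene's probe sets lies in the deleted part was not analysed here, so these values do not check the genotype labels.

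Klf2, a Krüppel-like factor that keeps naive T cells quiescent and sustains homing receptors, was lower in the knockout. Its single probe set read 242 and 284 in wild type and 109 and 119 in the knockout, so both knockout values lay below both wild-type values. The change was -1.10 on the log2 scale (SE 0.18, limma fit of 8 arrays, adjusted p = 0.0462), a 2.14-fold fall. In a fit of the 4 activated arrays alone the adjusted p was 0.0832, and the call was made in 11 of the 29 alternative settings tried. Both groups were far below the naive arrays, where Klf2 read 13065 to 17568. In these bulk samples fewer cells of a type and less RNA per cell cannot be told apart, for Klf2 and for each gene below.

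Klf4, the other Krüppel-like factor tied to ELF4, read 391 and 280 in wild type and 284 and 363 in the knockout at its brighter probe set, and the groups overlapped (log2 change -0.04, SE 0.31, limma, adjusted p = 0.984). Among genes downstream of KLF2, the lymph node homing receptor Ccr7 read 3639 and 3423 against 3177 and 2844, and S1pr1, the receptor for exit from lymphoid tissue, read 158 and 187 against 210 and 237. Neither passed (adjusted p = 0.615 and 0.584). Il7r, the receptor chain for the survival cytokine IL-7, read 5395 and 6063 against 7057 and 7350 (adjusted p = 0.288).

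Cdkn1a, which encodes the cyclin-dependent kinase inhibitor p21, read 10274 and 9635 in wild type and 13553 and 14007 in the knockout, without overlap (log2 change 0.47, SE 0.27, adjusted p = 0.597 with 8 arrays and 0.0311 with the 4 activated arrays alone, limma). The brightest probe set of Cd44, the adhesion receptor that marks activated T cells, read 11240 and 9548 against 17416 and 16431 (log2 change 0.71, SE 0.22, adjusted p = 0.272 and 0.0116). A probe set of Cd44 of similar brightness, 1434376_at, read 8694 and 7621 against 8975 and 8709 (log2 change 0.12, adjusted p = 0.905), so the probe sets differed in the size of the change.

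The 250 bases before the transcription start of 4 genes are shown because the genes encode the study's Krüppel-like factors and the chemokines that fell. Sequences and coordinates are those of RefSeq for GRCm38.p6, written 5′ to 3′ on the gene's strand, with the ETS core GGAA, or TTCC where the core is on the other strand, in capitals.
Klf2 (chr8:72318812-72319061, plus strand): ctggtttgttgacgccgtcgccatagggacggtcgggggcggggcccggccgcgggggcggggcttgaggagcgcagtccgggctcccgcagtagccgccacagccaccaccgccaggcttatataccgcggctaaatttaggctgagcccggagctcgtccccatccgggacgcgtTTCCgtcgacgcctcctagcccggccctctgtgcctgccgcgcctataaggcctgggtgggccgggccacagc
Klf4 (chr4:55532476-55532725, minus strand): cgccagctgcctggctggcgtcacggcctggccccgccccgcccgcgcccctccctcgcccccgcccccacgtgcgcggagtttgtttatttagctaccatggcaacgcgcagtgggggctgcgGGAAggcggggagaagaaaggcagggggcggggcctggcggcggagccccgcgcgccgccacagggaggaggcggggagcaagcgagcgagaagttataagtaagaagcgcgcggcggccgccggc
Xcl1 (chr1:164935523-164935772, minus strand): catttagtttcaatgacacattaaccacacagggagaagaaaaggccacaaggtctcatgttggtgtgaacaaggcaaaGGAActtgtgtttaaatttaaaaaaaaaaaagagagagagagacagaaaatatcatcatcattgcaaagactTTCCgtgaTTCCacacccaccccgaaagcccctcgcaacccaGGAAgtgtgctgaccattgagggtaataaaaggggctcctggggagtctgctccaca
Ccl3 (chr11:83649379-83649628, minus strand): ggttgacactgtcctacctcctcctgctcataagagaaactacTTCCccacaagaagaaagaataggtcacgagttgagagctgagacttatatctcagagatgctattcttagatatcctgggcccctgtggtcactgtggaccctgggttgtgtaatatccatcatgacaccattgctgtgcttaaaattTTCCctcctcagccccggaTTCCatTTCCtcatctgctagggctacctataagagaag
The core occurs 1 time in Klf2, 1 time in Klf4, 4 times in Xcl1 and 4 times in Ccl3. These letters are common, since GGAA on either strand is in 94.2% of the 27025 genes with a promoter of this length. The longer form CCGGAAG, which contains the core, was found on either strand in 14.9% of the genes tested on the arrays. It was in 3 of the 19 lower genes with a promoter (Calhm6, Rps18 and Stk4) and in 1 of the 15 higher genes with a promoter (Ero1a). A match describes the letters and does not show a binding site.

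Across the arrays 59 of 27389 tested probe sets (0.215%) passed an adjusted p of 0.05 in the limma fit of 8 arrays, 31 higher (0.113%) and 28 lower (0.102%) in the knockout. They named 44 genes, 21 higher and 23 lower, while 4 probe sets carried several symbols and 6 had none. Of the 59, 46 changed by 2-fold or more. The wild-type and knockout values of the 59 never overlapped, against 47% of all tested probe sets without overlap. Since the 59 were selected on these same values, that lack of overlap adds no support. The fit of the 4 activated arrays alone passed 719 (2.63%), 443 higher (1.62%) and 276 lower (1.01%), including 58 of the 59. Before adjustment 2880 probe sets had a p under 0.05, where 1369 would be expected if no gene differed. With each array centred on its median, 31 passed, 20 higher and 11 lower.

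The count depended on single arrays and on the Actb ratio. It was 8 without wild-type activated replicate 1, 19 without wild-type activated replicate 2, 17 without knockout activated replicate 1 and 14 without knockout activated replicate 2. With the log2 Actb ratio as a covariate 6 passed with 8 arrays, and 19 passed in the 4 activated arrays alone, of which 10 were among the 59. Erdr1, Lad1 and the probe sets 1439200_x_at and 1457769_at passed in every alternative tried that tested them, and no called probe set changed direction in any.

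**Figure D1:**
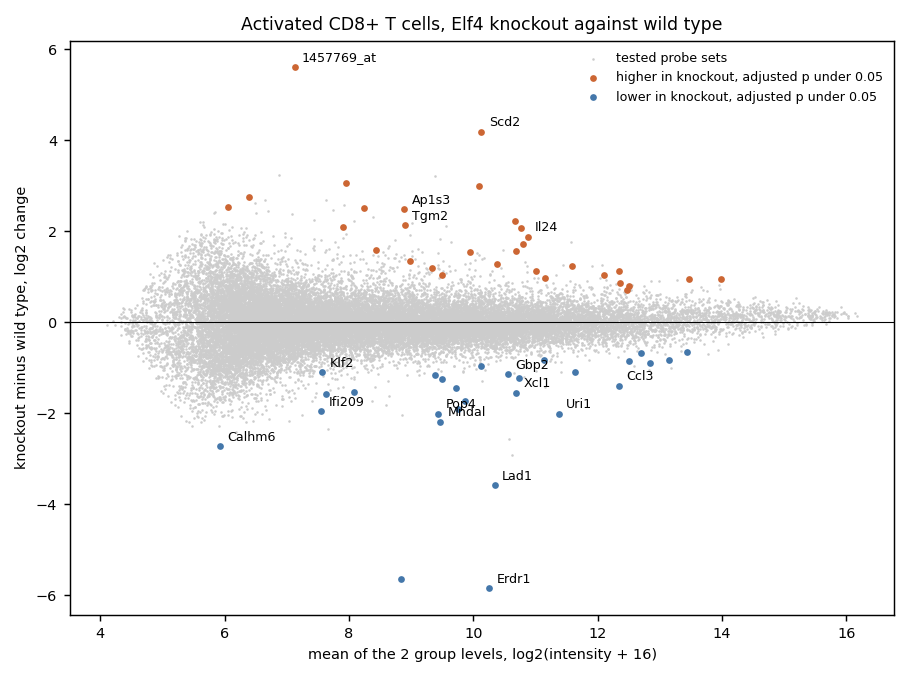
Mean level, log2(intensity + 16), on the x axis against the log2 change, knockout minus wild type, on the y axis for the 27389 probe sets tested in activated CD8+ T cells; coloured points are the 31 higher and 28 lower probe sets with an adjusted p under 0.05. Erdr1 and Lad1 lie furthest down among named genes and Scd2 furthest up, while Klf2 is a dim gene at -1.10.

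Mndal and Ifi209, of the interferon-inducible Ifi200 family, which encodes proteins with DNA-binding HIN domains, were lower in the knockout. Mndal read 1658 and 1642 in wild type and 407 and 449 in the knockout at its brighter probe set. The values of the 2 genotypes were well separated (log2 change -1.91, SE 0.13, limma, adjusted p = 8.5e-05), and Mndal's second probe set also fell, by 2.19 (SE 0.13, adjusted p = 3.4e-05). Ifi209 read 377 and 280 against 86.1 and 112 (log2 change -1.58, SE 0.20, adjusted p = 0.0117) and fell at both of its probe sets. The family's genes are similar in sequence, so their probe sets may share signal. The list of this family, which does not hold Mndal, had 4 tested members, of which 1, Ifi209, passed, against 0.288% of all genes. Ifi213 read 92.3 and 51.6 against 11.5 and 1.86 (adjusted p = 0.0737). Aim2 and Ifi203 overlapped between genotypes, and Ifi203 had a log2 change of 0.28.

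Gbp2, an interferon-induced GTPase that acts against intracellular microbes, read 5191 and 4133 in wild type and 2113 and 2187 in the knockout. Both of its probe sets fell, the brighter by 1.10 on the log2 scale (SE 0.16, limma, adjusted p = 0.0253). Of 39 interferon-stimulated genes tested, 1 passed with 8 arrays, against 0.288% of all genes with 1 probe set each, and 6 passed as lower with the 4 activated arrays alone (Gbp2, Irgm1, Irf1, Gbp6, Gbp7 and Iigp1), against 1.32% of all genes (3.69% in either direction). Leaving out 1 of these 4 arrays left 2 to 4 lower. The list's median log2 change was -0.52, against -0.01 over all genes with 1 probe set each, and 25 of the 39 were lower without overlap, against 25.7% of all genes. Irf1, the transcription factor at the head of the interferon-gamma response, read 2825 and 2805 against 1971 and 1952. Gbp7 read 1320 and 1268 against 566 and 714. In the model that held the Actb ratio 0 members passed by limma and the median was -0.40. Without the covariate 18 members had an unadjusted p under 0.05 (1 higher, 17 lower), against 6.79% of all genes higher and 5.73% lower. AW112010, whose transcript is induced in inflammation, read 9878 and 10123 against 5197 and 5590 (log2 change -0.89, SE 0.12, limma, adjusted p = 0.0147).

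Both chemokine genes that passed were lower in the knockout. Xcl1, which attracts cross-presenting dendritic cells, read 3452 and 2233 in wild type and 833 and 1056 in the knockout, with the wild-type replicates further apart than the knockout ones. It fell by 1.55 (SE 0.24, limma, adjusted p = 0.0346), a 2.93-fold change. Ccl3, an inflammatory chemokine gene, read 10187 and 6756 against 2849 and 3471 and fell by 1.40 (SE 0.23, adjusted p = 0.0462). They were 2 of 11 chemokine genes tested, against 0.288% of all genes, and the list's median log2 change was -0.41. Ccl1 (387 and 232 against 83.0 and 136) and Cxcl10 (129 and 139 against 43.3 and 8.11) did not pass (adjusted p = 0.204 and 0.238). With each array centred on its median, and after quantile normalization, 0 of the 11 passed in limma. In the main fit 4 had an unadjusted p under 0.05, all lower, against 5.73% of all genes lower.

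Prkcq, Ikzf1, Stk4 and Lsp1 also passed as lower. Prkcq, the protein kinase C that carries the receptor's signal to NF-kappaB, read 3029 and 2962 in wild type and 1599 and 1774 in the knockout (log2 change -0.82, SE 0.13, limma, adjusted p = 0.0365). Ikzf1, which encodes Ikaros, read 8221 and 8513 against 5547 and 4955 (log2 change -0.67, SE 0.11, adjusted p = 0.0462). Stk4, the Hippo kinase MST1 that supports T cell adhesion and survival, read 7574 and 7988 against 4324 and 4269 (log2 change -0.85, adjusted p = 0.0208). Lsp1, an F-actin binding protein of leukocytes, read 1597 and 1501 against 861 and 711 (log2 change -0.97, adjusted p = 0.0328). In each of these 4 genes, which were selected on these same values, the genotypes were separated by more than the gap between replicates.

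On the T cell receptor signalling list 1 of 29 genes passed with 8 arrays, against 0.288% of all genes. With the 4 activated arrays alone 2 passed, both as lower, against 1.32% of all genes lower (3.69% in either direction). They were Prkcq and the receptor subunit gene Cd3e (1354 and 1269 against 724 and 816). The list's median change was -0.15, and 18 of the 29 were lower without overlap, against 25.7% of all genes.

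The largest fall was that of Erdr1, named for erythroid differentiation. It read 10009 and 8385 in wild type and 113 and 179 in the knockout, a 57.8-fold difference (log2 change -5.85, SE 0.28, limma, adjusted p = 1.2e-05). The identifier of this probe set marks it as one that may also bind related sequences, and the second probe set of Erdr1 read 121 and 85.0 against 55.9 and 14 (adjusted p = 0.412). Lad1, which encodes ladinin, a protein of anchoring filaments, read 4936 and 4035 against 309 and 410, a 12.0-fold difference (log2 change -3.59, SE 0.22, adjusted p = 3.4e-05). Calhm6, of the calcium homeostasis modulator channel family, read 107 and 175 against 4.0 and 10.8, so its knockout values were at the low end of the arrays (log2 change -2.73, SE 0.28, adjusted p = 0.00228). They lay below the array medians, and the change ran from -4.38 to -1.50 over the alternatives tried, so its size is not well measured.

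Pop4, a subunit of the RNA-processing enzymes RNase P and RNase MRP, read 1518 and 1241 in wild type and 296 and 362 in the knockout (log2 change -2.02, SE 0.20, limma, adjusted p = 0.00163). Uri1, a prefoldin-like chaperone subunit, read 5216 and 5475 against 1282 and 1335 at the probe set that passed (log2 change -2.02, SE 0.22, adjusted p = 0.00397). The 2 other probe sets of Uri1 did not follow it, with log2 changes of 0.06 and 0.05. Thap4 likewise passed at 1 of 4 probe sets, 1711 and 1645 against 463 and 530, and 1 of the others had the same direction.

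The remaining lower genes changed by 1.58-fold to 2.74-fold. They were the aminopeptidase gene Rnpep (log2 change -1.46), the glycosyltransferase gene Galnt12 (-1.25), the telomere-binding factor gene Terf2 (-1.22), the membrane protein gene Cmtm7 (-1.16), the snoRNA host gene Snhg6 (-0.84) and the ribosomal protein gene Rps18 (-0.66). Terf2 read 2344 and 2819 against 1218 and 979 at the 1 of its 3 probe sets that passed. All 3 were lower, but another of similar brightness in wild type hardly changed. It read 2725 and 2733 against 2539 and 2503 (log2 change -0.11, limma, adjusted p = 0.853). Rps18 was lower at 3 of its 5 tested probe sets, and its brightest one, at 50687 to 60770 on the 4 arrays, had a log2 change of 0.10 (adjusted p = 0.814).

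**Figure D2:**
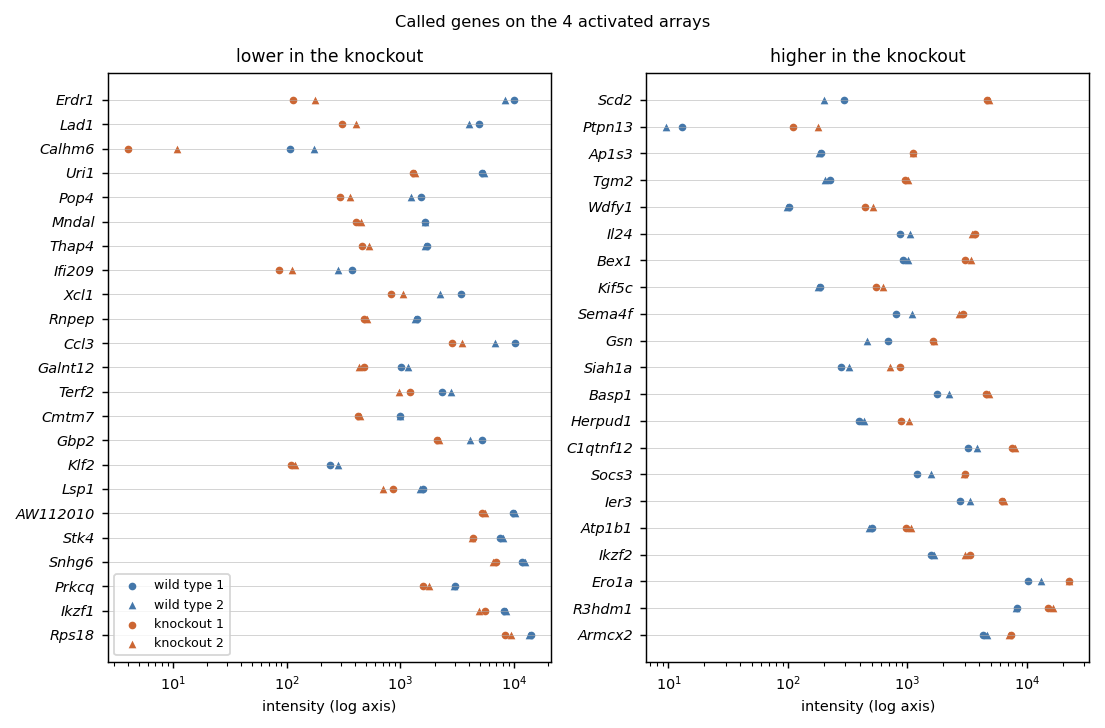
Intensity (log axis) of the 44 called genes, 1 probe set per gene, on each activated array; blue is wild type, orange knockout, circles replicate 1 and triangles replicate 2. Blue and orange never interleave for any gene, which the selection of the genes on these values largely fixed. The gap runs from 1.58-fold for Rps18 to 57.8-fold for Erdr1.

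Il24, an IL-10 family cytokine, read 872 and 1056 in wild type and 3659 and 3492 in the knockout, a 3.68-fold rise (log2 change 1.88, SE 0.25, limma, adjusted p = 0.0159). It was the only one of 22 cytokine genes tested that passed with 8 arrays, against 0.288% of all genes. In the 4 activated arrays alone 9 of the 22 passed as higher (Il24, Il13, Il17a, Il5, Il9, Lif, Il2, Tnfsf11 and Il3), against 2.37% of all genes. The list's median log2 change was 0.74, and 18 of the 22 were higher without overlap, against 25.2% of all genes.

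Il13, a type 2 cytokine, read 315 and 403 against 1273 and 1353 (log2 change 1.83, SE 0.34, adjusted p = 0.0663 with 8 arrays and 0.00135 with the 4 activated arrays, limma). Il17a, the cytokine that defines type 17 cells, read 319 and 207 against 1262 and 1262 (adjusted p = 0.144 and 0.00143). Il5, a type 2 cytokine that supports eosinophils, read 48.5 and 12.0 against 237 and 196 (adjusted p = 0.214 and 0.0366). In all of these genes, which were picked by their calls on these arrays, both knockout values lay above both wild-type values.

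Il2, the T cell growth factor, read 475 and 413 in wild type and 1080 and 984 in the knockout (log2 change 1.19, adjusted p = 0.298 with 8 arrays and 0.00737 with the 4 activated arrays, limma). Il3, a haematopoietic growth factor, read 342 and 392 against 775 and 830. Leaving out any 1 of the 4 activated arrays from the fit of those arrays left 6 to 10 cytokine genes higher. Once the Actb ratio entered the model, 0 of the 22 passed with 8 arrays and 1 with the 4 activated arrays, and the medians were 0.95 and 0.90. In the main fit 13 of the 22 had an unadjusted p under 0.05, 12 of them higher, against 6.79% of all genes higher and 5.73% lower. Sox13, the only gamma delta T cell marker with a probe set, read 13.3 and 19.8 in wild type and 61.4 and 204 in the knockout. Its part in the cytokine values was not tested.

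Socs3, Ikzf2 and Ier3 were also among the higher calls. Socs3, the feedback inhibitor of STAT3 signalling, read 1194 and 1587 in wild type and 3049 and 2973 in the knockout (log2 change 1.12, SE 0.16, limma, adjusted p = 0.0245). Ikzf2, which encodes Helios, read 1570 and 1657 against 3362 and 3005 (log2 change 0.97, SE 0.16, adjusted p = 0.0459), the opposite direction to its family member Ikzf1. Ier3, an immediate early gene that modulates cell survival, read 2759 and 3362 against 6172 and 6421 (log2 change 1.04, SE 0.15, adjusted p = 0.0255). All 3 genes, selected on these same values, showed no overlap between genotypes.

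Among 27 effector and memory transcription factors, Ikzf2 and Ikzf1 were the calls with 8 arrays. The 4 activated arrays alone added Stat3 (2219 and 2096 against 3274 and 3047) and Stat5b (1243 and 1181 against 1827 and 1703) as higher. They added Tbx21, the factor T-bet that directs effector differentiation, as lower (1581 and 1582 against 1022 and 1013, limma, adjusted p = 0.0283). In that fit 3 of the 27 were higher and 2 lower, against 2.37% and 1.32% of all genes, and 1 to 2 were higher and 1 lower when 1 array was left out.

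Scd2, a fatty acid desaturase gene, had the largest rise among named genes. At the probe set that passed it read 297 and 201 in wild type and 4645 and 4824 in the knockout, an 18.2-fold difference (log2 change 4.19, SE 0.40, limma, adjusted p = 0.00161). The brightest probe set of Scd2, however, read 32372 and 33062 against 42144 and 40579 (log2 change 0.34, adjusted p = 0.635), so the size of the rise was particular to 1 of 3 probe sets. None of the 26 genes of cholesterol and fatty acid synthesis passed at its brightest probe set in limma with either set of arrays, and 4 of them had an unadjusted p under 0.05 (2 higher, 2 lower).

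Ap1s3, Wdfy1, Gsn and Kif5c also passed as higher. Ap1s3, a clathrin adaptor subunit, read 187 and 182 in wild type and 1105 and 1105 in the knockout (log2 change 2.48, SE 0.24, limma, adjusted p = 0.00161). Wdfy1, a FYVE-domain protein of endosomes, read 102 and 97.7 against 444 and 511 (log2 change 2.09, SE 0.30, adjusted p = 0.0247). Gsn, the actin-severing protein gelsolin, passed at 2 of 5 probe sets, with changes of 1.54 and 1.27, and all 5 were higher. Kif5c, a kinesin motor gene, read 186 and 180 against 546 and 619 (log2 change 1.59, adjusted p = 0.0328). Of 51 genes on the list of the actin cytoskeleton and adhesion, 0 were higher and 1 lower with 8 arrays (0.288% of all genes in either direction), and 2 were higher and 4 lower with the 4 activated arrays alone (2.37% and 1.32%), with a median of -0.08.

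Herpud1 and Ero1a act in the endoplasmic reticulum, in degradation and in disulfide formation, and both passed as higher. Ero1a was bright, reading 10158 and 13174 in wild type and 22576 and 22268 in the knockout (log2 change 0.95, SE 0.15, limma, adjusted p = 0.0337). Herpud1 read 391 and 433 against 890 and 1031 at the probe set that passed, whereas its brighter probe set read 2716 and 2323 against 2422 and 2500. On the list of ER chaperones and the unfolded protein response, which does not hold Ero1a, 0 of 21 tested genes passed with 8 arrays (0.288% of all genes). With the 4 activated arrays alone 0 were higher and 1 lower, against 2.37% and 1.32% of all genes. The list's median log2 change was 0.08.

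The other higher genes were the transglutaminase gene Tgm2 (log2 change 2.13), the tyrosine phosphatase gene Ptpn13 (2.53), Bex1 (1.72), the semaphorin gene Sema4f (1.56), the ubiquitin ligase gene Siah1a (1.34), Basp1 (1.23), the secreted-protein gene C1qtnf12 (1.13), the sodium pump subunit gene Atp1b1 (1.03), R3hdm1 (0.94) and Armcx2 (0.70). Tgm2 read 223 and 203 against 958 and 1014, and all 5 of its probe sets were higher. Ptpn13 was dim in wild type, at 12.9 and 9.57 against 111 and 178, and its second probe set had the opposite direction. Siah1a was higher at 1 of 3 probe sets only.

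Of the 44 called genes, 27 had over 1 probe set tested. In 19 of the 27 all tested probe sets had the same direction, and in 8 at least 1 had the other. For 5 genes (Gbp2, Wdfy1, Mndal, Ifi209 and Gsn) over 1 probe set passed.

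Few cell cycle genes passed. Of 50 genes of DNA replication and G1/S, 0 passed with 8 arrays and 1 (Mcm10, 3398 and 2878 against 2216 and 2119) with the 4 activated arrays alone, where 1.32% of all genes passed as lower, in limma. With 8 arrays 5 had an unadjusted p under 0.05, all lower, against 5.73% of all genes lower. The median log2 change was -0.23, and 34 of the 50 were lower without overlap, against 25.7% of all genes. Of 53 genes of G2/M and mitosis, 0 passed with 8 arrays and 1 had an unadjusted p under 0.05, as lower, against the same 5.73%. With the 4 activated arrays 2 passed as lower, against 1.32% of all genes. Those were Ndc80, a kinetochore subunit (1547 and 1437 against 682 and 771), and Birc5, which encodes survivin (2666 and 2837 against 1781 and 1517). Here the median was -0.19 and 30 were lower without overlap. Mki67, the gene of the division marker Ki-67, read 13710 and 14188 against 10582 and 10998 (log2 change -0.37, SE 0.20, adjusted p = 0.578).

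Receptors of the cell surface gave calls in the 4 activated arrays alone. Klrd1 and Klrc1, which encode the CD94 and NKG2A chains of an NK-type receptor, read 3903 and 4446 against 2286 and 2690 and 2521 and 2925 against 1160 and 1177 (limma, adjusted p = 0.0154 and 0.00172). They were 2 of 9 such receptors, against 1.32% of all genes lower, and 1 to 2 were lower when 1 array was left out. Of 21 cytokine receptor genes, 3 were lower, Tgfbr2, Il18rap and Il18r1, against 1.32% of all genes, but 0 to 1 were lower when 1 of the 4 arrays was left out. Tgfbr2, a subunit of the TGF-beta receptor, read 2403 and 2479 against 1474 and 1577.

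Among 9 inhibitory receptors Cd5 was higher (2383 and 2154 against 3503 and 3836) and Cd160 and Havcr2 were lower in that fit, against 2.37% of all genes higher and 1.32% lower. Among 14 costimulatory receptors Tnfrsf18 and Slamf1 were higher and Cd27 was lower, at 440 and 469 against 218 and 202. When 1 of the 4 arrays was left out, 0 to 1 inhibitory receptors were higher and 0 to 1 lower, and 0 to 2 costimulatory receptors were higher and 0 lower. None of these receptor genes passed with 8 arrays in limma, where 1 inhibitory receptor in each direction and 6 costimulatory receptors (4 higher, 2 lower) had an unadjusted p under 0.05. Among all genes 6.79% were higher and 5.73% lower at that limit.

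Of 34 genes of the amino acid response driven by ATF4, 6 were higher (Aldh1l2, Vldlr, Stc2, Cebpg, Ddit4 and Cth) and 1, the mitochondrial serine hydroxymethyltransferase gene Shmt2, lower with the 4 activated arrays alone, against 2.37% and 1.32% of all genes. Leaving out 1 of these arrays left 3 to 5 higher and 0 to 1 lower. Aldh1l2, a mitochondrial folate enzyme, read 712 and 919 against 2565 and 2343. The list's median change was only 0.08. On the list of glycolysis and glucose transport, with 22 genes tested, 2 were higher in that fit, against 2.37% of all genes. They were Egln3 (4695 and 6143 against 9678 and 10516) and Bnip3. Both are targets of hypoxia-inducible factors, and neither encodes a glycolytic enzyme or a glucose transporter. The count was 1 to 5 when 1 array was left out, and the list's median was 0.22. In the 8-array limma fit 0 members of either list passed. An unadjusted p under 0.05 was found for 8 of the 34 (6 higher, 2 lower) and 6 of the 22, all higher. Among all genes 6.79% were higher and 5.73% lower at that limit.

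**Figure D3:**
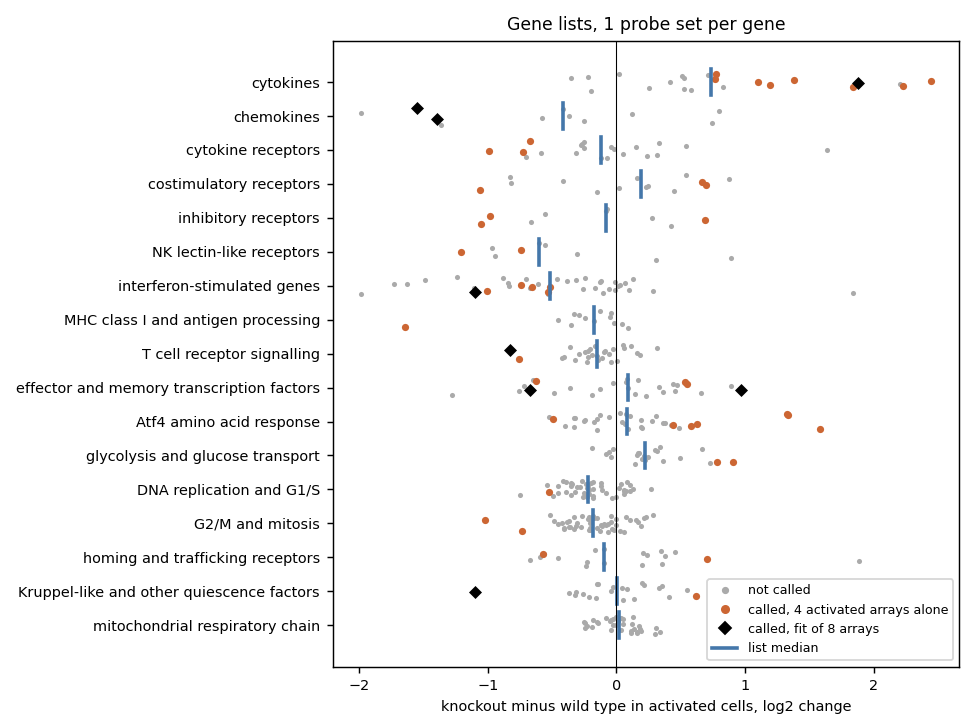
Log2 change, knockout minus wild type in activated cells, of each tested gene (points, 1 probe set per gene) in 17 gene lists, with the list median as a bar. The cytokine median lies at 0.74 and the interferon-stimulated median at -0.52, while the respiratory chain stays near 0 (0.02).

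The fit of the 4 activated arrays alone, with array values that do not overlap, gave further genes whose 8-array adjusted p was above 0.05. The 10 rises with the highest log2 change included Crabp2, a retinoic acid binding protein (26.1 and 18.2 against 353 and 333), and Ctse, the protease cathepsin E (168 and 245 against 2070 and 1941). Ctse changed by 3.21 on the log2 scale (SE 0.19 in this fit, limma, adjusted p = 8.1e-05). Dntt, Grp, Il5, Gfpt2, Lum, Pth, Il17a and Apold1 had log2 changes of 2.57 to 2.21. The falls included Samhd1, a nucleotide hydrolase that restricts viruses (3162 and 4087 against 426 and 820), Aebp1, Cd99l2 and Tmem267, with log2 changes of -2.57 to -2.04. H2-Ea, an MHC class II chain, Cd1d1, a lipid-presenting molecule, Sdr39u1, Rps27, Klrc1 and Kdm5b followed, with log2 changes of -1.73 to -1.20. Both values of the lower genotype were below the array medians for Crabp2, Il5, Gfpt2, Aebp1 and Cd99l2, so the sizes of these changes, and their order among the others, rest on the offset of 16.

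The genes that differed in activated cells were then compared with the genotype effect in naive cells, which rests on other arrays. Of the 59 probe sets 44 had the same sign in naive cells. The share with the same sign over all tested probe sets was not computed, so that count has no background. Some genes also hold more than 1 of the 59. In naive cells 8 of the 59 passed (background 0.562% of tested probe sets), 7 of them in the same direction. Erdr1 read 17613 and 9961 in naive wild-type and 174 and 207 in naive knockout cells, a fall of about the size seen after activation (log2 change -6.01, limma, adjusted p = 9.3e-06). Probe set 1457769_at, which has no gene symbol, had the reverse pattern, at 4.33 and 4.71 against 1194 and 1390 in naive cells and 3.60 and 4.35 against 1026 and 900 after activation. Scd2 (log2 change 3.59) and Ikzf2 (1.88) were also higher in naive knockout cells.

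The genotype effect itself differed between the states for 16 probe sets (0.0584% of those tested, limma, adjusted p under 0.05), 7 of which were among the 59. The naive groups also differed in markers of other cells. The 7 granulocyte markers, all with a probe set, summed to 364 and 610 in naive wild type and to 4332 and 18171 in naive knockout cells, and the 7 macrophage and monocyte markers to 1914 and 2356 against 3425 and 5777. The granulocyte gene S100a8 and 2 probe sets of the immunoglobulin gene Igha were among the 16, and the part of these cells in the other differences was not tested. Mki67 was also among the 16, at 174 and 255 in naive wild-type and 714 and 1006 in naive knockout cells. Its difference of effects was -2.30 (SE 0.29, limma, adjusted p = 0.0224). Lad1 read 310 and 367 against 269 and 273 in naive cells, so that it was at a similar level in both genotypes before activation and 12.0-fold apart after it (difference of effects -3.29, SE 0.31, adjusted p = 0.00678). Mndal and Ifi209 were bright in naive cells of both genotypes, Mndal at 12742 and 12424 against 10658 and 10535. Their differences of effects were -1.66 (SE 0.18, adjusted p = 0.0127) for the brighter Mndal probe set and -2.08 (SE 0.26, adjusted p = 0.0224) for the Ifi209 probe set 1435331_at. The Ifi209 probe set 1435330_at, described above, read 10289 and 9233 against 5366 and 4775 in naive cells (log2 change -0.94), and its difference of effects of -0.64 did not pass (SE 0.28, adjusted p = 0.498). Il24 read 64.2 and 61.4 against 15.1 and 11.4 in naive cells, each below its array's median (70.5 to 86.0), so a naive change cannot be read from these values and the size of the difference of effects (3.31, SE 0.35, adjusted p = 0.0127) rests in part on them. Socs3 read 9221 and 7920 against 5338 and 5170 in naive cells (adjusted p = 0.101), the opposite sign to its change after activation (difference 1.82, SE 0.22, adjusted p = 0.0224).

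These tests of the difference used all 8 arrays. The number that passed was 0 without wild-type activated replicate 1 or 2 or knockout activated replicate 1, 3 without knockout activated replicate 2, and 60, 84, 40 and 7 without wild-type naive replicates 1 and 2 and knockout naive replicates 1 and 2. Xist and Eif2s3y had a female pattern on the activated and a male one on the naive arrays. The Lys spike control read 62726 to 78734 on the activated and 989 to 1654 on the naive arrays. State therefore cannot be told apart from the sex of the cells or from whatever set the spike signal. The activated and naive arrays also differed in the Actb ratio. With the Actb ratio as a covariate 0 passed in limma, and 1315 had an unadjusted p under 0.05.

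**Figure D4:**
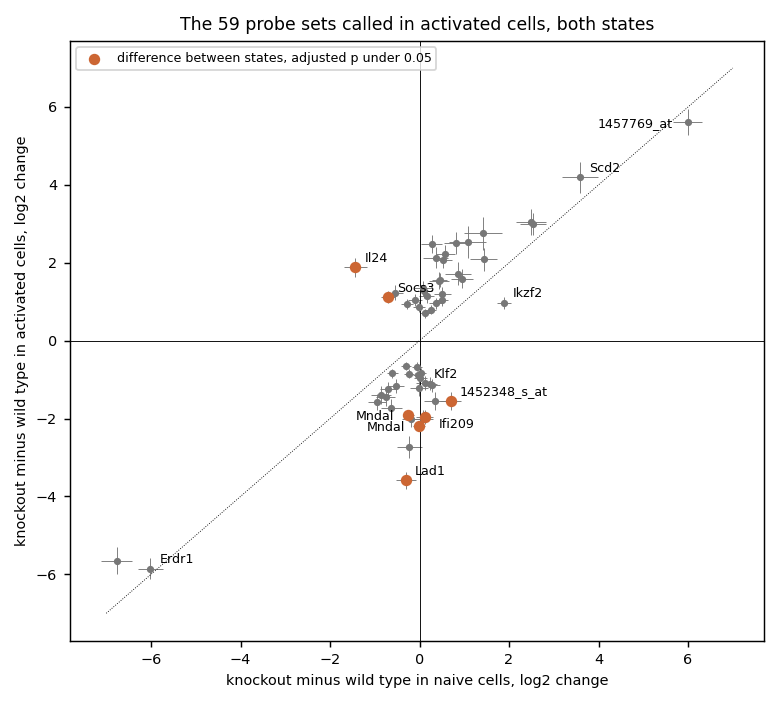
Log2 change by genotype in naive (x axis) and in activated cells (y axis) of the 59 probe sets called in activated cells, with standard errors; the dotted line is equality and orange marks the 7 whose effects differ between the states. Erdr1 and 1457769_at lie near the line, whereas Lad1, both Mndal probe sets and the Ifi209 probe set 1435331_at lie nearer 0 in naive cells and low in activated cells; the other Ifi209 probe set is at -0.94 in naive cells.

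The called genes were also placed on the chromosomes. Chromosome 1 held 13 of them among 730 genes tested (1.78%), 6 higher and 7 lower, against 31 of 12044 (0.257%) on the others together. In the 4 activated arrays alone the shares were 6.99% and 4.27%. The 13 on chromosome 1 were Lad1, Mndal, Ifi209, Xcl1, Il24, Ap1s3, Wdfy1, Ikzf2, Atp1b1, Rnpep, Thap4, Snhg6 and R3hdm1. The X chromosome, which carries Elf4, held 3 of 388 (0.773%) with 8 arrays and 32 of 388 (8.25%) with the 4 activated arrays alone, the highest share of any chromosome in that fit, and chromosome 19 held 6.28%.

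In the gene order of GRCm38.p6, 41 called genes could be placed, and 25 pairs followed each other on a chromosome. In 5 pairs at most 10 protein-coding genes lay between them, and 4 of those pairs moved the same way. The share over all 25 pairs was not worked out, so that count has no background. Ap1s3 and Wdfy1 are direct neighbours and both rose. Ifi209 and Mndal, with 3 genes between them, both fell, as did Rnpep and Lad1 with 8 between and Uri1 and Pop4 with 3 between. Of the genes between, 6 were tested for Rnpep and Lad1 and 3 for Uri1 and Pop4, and 0 were called with 8 arrays. With the 4 activated arrays alone 1 of the 6 passed and 0 of the 3. That gene, Csrp1, was higher in the knockout (226 and 318 against 683 and 608, limma, adjusted p = 0.0223). Uri1 fell at 1 of its 3 probe sets only, and Ifi209 and Mndal may share signal. Atp1b1, which rose, and Xcl1, which fell, had 1 gene between them.

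With the 4 activated arrays alone, 4.42% of all genes and 8.25% of those on the X chromosome passed at any of their probe sets. Among 19 tested X neighbours of Elf4, each at its brightest probe set, 2 were higher and 1 lower, against 3.69% of all genes. Leaving out 1 array left 1 to 2 higher and 0 to 1 lower. Rab33a, a small GTPase, read 242 and 319 against 751 and 761, Enox2 read 529 and 676 against 1028 and 1097, and Mbnl3, a splicing regulator, read 2790 and 2611 against 1790 and 1523. None passed with 8 arrays in limma, where 4 had an unadjusted p under 0.05 as higher and 1 as lower, against 6.79% and 5.73% of all genes.

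**Figure D5:**
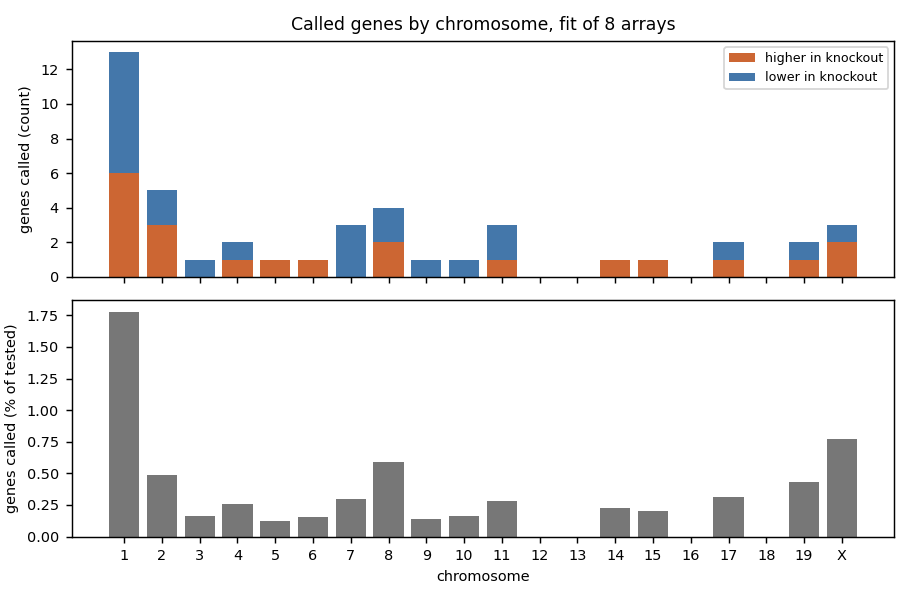
Called genes in activated cells by chromosome, as a count split by direction (top) and as a percentage of the genes tested there (bottom). Chromosome 1 has 13 called genes, 1.78% of its 730 tested genes.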

How the data were processed

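The deposited values are linear intensities, 1 for each probe set on each array, made by the authors with MAS5 per the submitters' processing notes, which give no version. Each array's trimmed mean was 500, with 2% left out at each end. Of 45101 probe sets, 64 were controls, 34945 of the rest had 1 gene symbol, 932 several and 9160 none; 34741 symbols were updated through GRCm38.p6 gene tables. The unit is that of the deposited intensities throughout.

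Values were taken as log2(intensity + 16), which understates changes of dim genes. Probe sets at or above the array median on at least 2 of 8 arrays were tested, 27389 for 12838 named genes. A linear model of 4 group means was fitted to 8 arrays with limma 3.58.1 in R 4.3.3 (lmFit, eBayes with a trend), with 4 residual and 6.7 prior degrees of freedom, and refitted to the 4 activated arrays. Tests were two-sided, with Benjamini-Hochberg adjustment over all tested probe sets. Fold changes are on the log2(intensity + 16) scale. The fit was run on simulated data with known changes and independent noise. Those data did not carry the shift of the Actb ratio with genotype, so they cannot test its effect on the calls.

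The arrays number 2 per group, which limits the precision. Named genes were Elf4, genes the study followed, every called gene, the 10 largest rises and 10 largest falls called in the 4-array fit alone, and list members with the smallest p. Where several probe sets passed, the brightest was used, and each list gene was taken at its brightest probe set. The comparison and the gene lists were chosen with earlier results of these data known. Replicate numbers were not treated as pairs, since the labels do not say that equal numbers share an animal, litter or day. Over probe sets, same-numbered deviations correlated at 0.0231 in activated and -0.167 in naive cells. With 2 arrays per group these values cannot decide whether arrays were paired. Alternatives covered the offset, scaling, filter, prior, array weights, a replicate block, the Actb ratio, cross-hybridising probe sets and each array left out; the Actb ratio in the 4-array fit, and the repeats for the comparison with naive cells, were added after seeing the data. Promoters are the 250 bases before a RefSeq start.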

Additional observations from a re-analysis of the deposited data

Results flagged for a closer look

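For 7 probe sets called in activated cells the genotype effect differed between activated and naive cells by a test of that difference (limma, adjusted p under 0.05, activated minus naive, log2 scale). The difference was negative for Lad1 (-3.29), probe set 1452348_s_at, which is annotated to several genes (-2.24), both probe sets of Mndal (-2.18 and -1.66) and 1 probe set of Ifi209 (-2.08). It was positive for Socs3 (1.82) and Il24 (3.31). Among 27389 tested probe sets 16 passed this test. With the Actb ratio as a covariate 0 passed (1315 at an unadjusted p under 0.05). Xist and Eif2s3y had a female pattern on activated and a male pattern on naive arrays, so state cannot be told apart from the sex of the cells. The 4 naive values of Il24 lay below their array medians.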

How the results depend on the processing

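The main count of 59 was within 1.5 times under no offset, an offset of 64, quantile normalization, 3 other filters, an added 2-fold limit, and without the _x_at and _s_at probe sets. It was 31 with arrays centred on their median, 7 without a trend in the prior, 92 with robust estimation, 438 with array weights, 719 with the 4 activated arrays alone, 6 with the Actb ratio as a covariate and 19 with both of the last; the causes were not tested. With the replicate block it was 26 over 8 arrays and 1073 over the 4 activated arrays. Leaving out 1 array gave 8 to 103, and within the 4 activated arrays 371, 438, 359 and 431 without wild-type replicates 1 and 2 and knockout replicates 1 and 2; a group of 1 array was taken to have the spread of the rest. The 16 differences between states became 26 with an offset of 64, 26 with robust estimation, 30 with array weights, 0 without a trend (2326 at an unadjusted p under 0.05) and 0 with the Actb covariate (1315 at that limit), and 0 to 84 when an array was left out. The 8 calls shared with naive cells became 5 with a filter at 6 of 8 arrays, 3 without a trend and 5 to 10 when an array was left out. Klf4, overlapping between genotypes, changed sign: its brighter probe set to 0.19 and 0.13 without wild-type activated replicate 1 or knockout activated replicate 1 (range -0.27 to 0.19 when an array was left out), and its dimmer one to 0.34 without knockout activated replicate 2 (range -1.96 to 0.34) and to 0.74 and 1.64 with the Actb covariate over 8 and 4 arrays. Intensities near the array medians of 63.9 to 71.8, such as those of Elf4, limit what can be detected.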
